A study of Rattus norvegicus with 9 samples.

Results

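The translation initiation factor genes are the genes whose products bring a ribosome, an initiator tRNA and an mRNA together at a start codon. They were taken here as every line of the gene table whose symbol begins with Eif and a digit, with the eIF2 kinases (Eif2ak genes) and pseudogene symbols left out. The rule found 46 of 22077 genes, and all 46 had enough reads to be tested. Eif3e, Eif3h, Eif3i and Eif5 were not analysed here. The RNA came from peripheral blood mononuclear cells (PBMC), the lymphocytes and monocytes of blood, of wild-type Sprague-Dawley rats. Rats of the Sugen-hypoxia model (SuHx), in which a blocker of VEGF receptors is combined with low oxygen to give pulmonary hypertension, were sampled at day 28 and at day 56, and normoxia rats at day 0, with 3 libraries in each of the 3 groups. All rats were wild type, and the labels used here name neither age nor sex. Day and treatment cannot be told apart, since the normoxia libraries are of day 0 only. The labels do not say that replicates were separate animals, so the p-values measure the spread between these libraries, which may be technical.

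Initiation begins when eIF2 carries the initiator tRNA to the small ribosomal subunit, helped by eIF1, eIF1A and the many-subunit scaffold eIF3. The cap-binding complex eIF4F (eIF4E on the cap, eIF4G as scaffold and the helicase eIF4A) brings the mRNA, and the loaded subunit then scans to a start codon. After each round eIF2 is recharged by its exchange factor eIF2B, a step that is blocked when stress kinases phosphorylate the alpha subunit of eIF2. Activated lymphocytes are known for raising their rate of translation, and the factors eIF4E and eIF2 are well known points of its control.

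The libraries held 22148400 to 39947430 exon reads and differed in what those reads were. Reads of 5 globin genes made up 1.42% to 29.0% of exon reads at SuHx day 28, 40.5% to 44.4% at day 56 and 43.0% to 56.3% in normoxia. Reads on introns made up 14.2% to 24.9% of gene reads at day 28 and 11.9% to 16.9% at day 56, against 14.6% in normoxia replicate 1 and 6.60% and 5.37% in normoxia replicates 2 and 3. The library codes in the column headers form 3 runs: 068 to 070 are the day 28 libraries, so that run and day 28 cannot be told apart, 046 and 047 are normoxia replicate 1 and day 56 replicate 1, and 061 to 064 are the other 4 libraries. The leukocyte and monocyte markers Ptprc, Cd3e and Cd14 were present in every library, with summed levels of 1836 to 2186 CPM (exon read counts scaled to a common library size after TMM normalization) at day 28, 1648 to 1868 CPM at day 56 and 1882 to 2130 CPM in normoxia. The summed level of 17 erythroid markers was 149.7 to 2945 CPM at day 28, 5325 to 6198 CPM at day 56 and 4768 to 11902 CPM in normoxia, and that of 11 monocyte markers was 3543 to 11099 CPM, 1930 to 2907 CPM and 2277 to 4650 CPM in the same order. All 17 erythroid markers were lower than in normoxia at day 28 by sign, 1 of them called, and all 10 monocyte markers tested were higher, none called. None of these markers was at 0 in all libraries. In bulk RNA, fewer cells of a type and less RNA per cell cannot be told apart, and the part of these shares in the results was not tested.

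Against normoxia, 3 initiation factor genes passed the test at day 56 and none at day 28. The 3 were Eif2s1 and Eif2s3y, which encode subunits of eIF2, and Eif2b5, which encodes the catalytic subunit of eIF2B, and all 3 fell. This is edgeR's quasi-likelihood test on all 9 libraries, with p-values adjusted by Benjamini-Hochberg over 12447 genes and a threshold of 0.05. The 3 lower genes are 6.52% of the 46, beside 3.7% of all tested genes called lower, and the 0 higher genes stand beside 3.42% called higher. At an unadjusted p under 0.05, 16 members were lower and 5 higher at day 56, together 45.7% of members against 30.9% of all genes. DESeq2, the other tool run, called 10 members lower at day 56, 21.7% against 10.6% of all genes, and 3 higher, 6.52% against 8.95%. For day 28 against normoxia the share of all genes called was 0.129%, and 13 members had an unadjusted p under 0.05, which at 28.3% is close to the 28.8% of all genes. DESeq2 called 2 members there, Eif2b5 lower and Eif5b higher, 2.17% each, against 7.38% of all genes lower and 6.24% higher. Both comparisons use the same normoxia libraries.

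**Figure D1:**
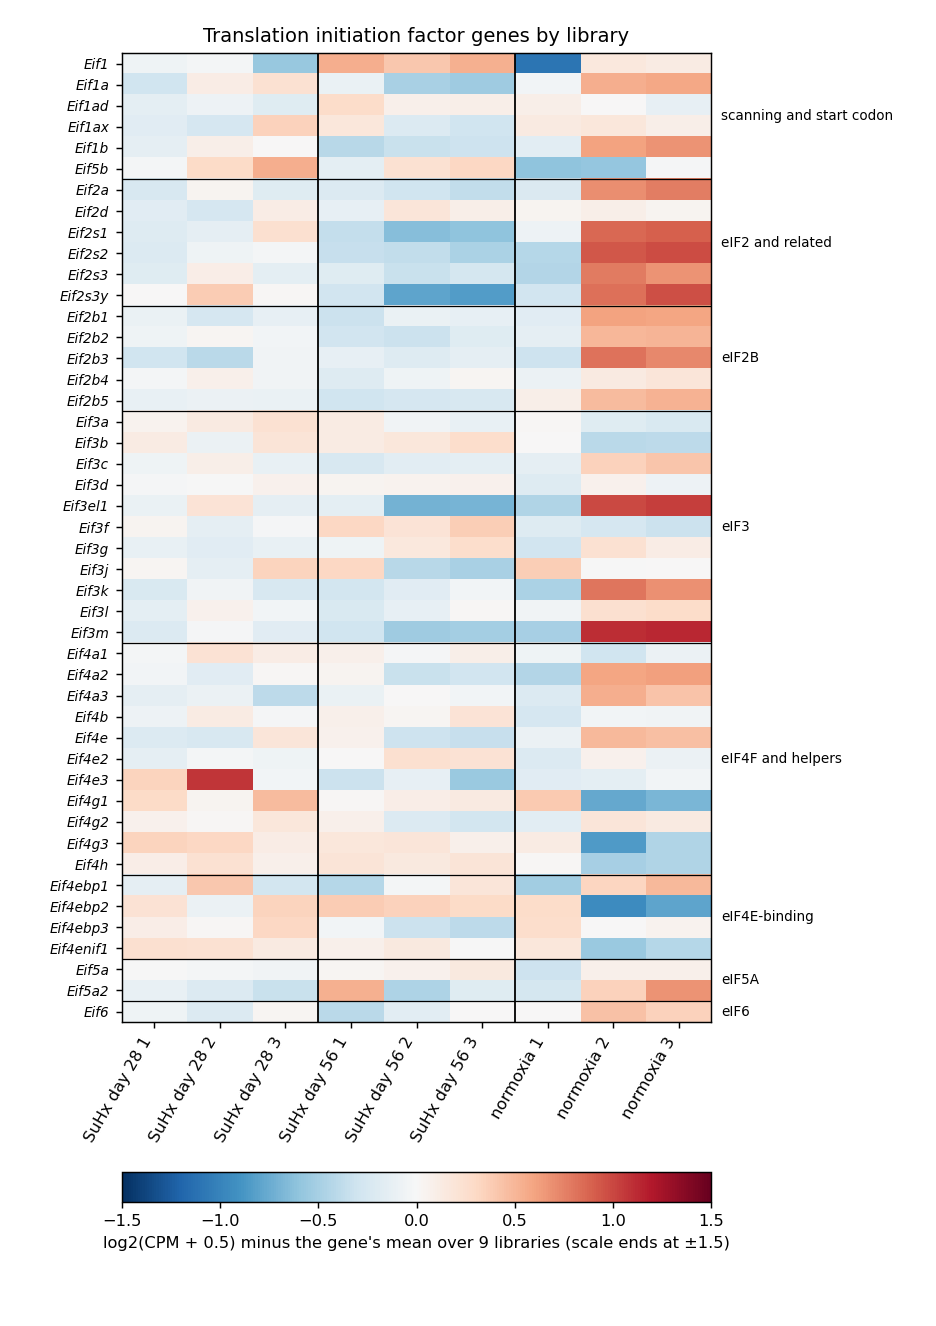
Each row is 1 of the 46 genes, grouped by role, and each column 1 library; the colour is log2(CPM + 0.5) minus the gene's mean over the 9 libraries. Normoxia replicates 2 and 3 share a pattern of high levels of most eIF2 and eIF2B genes and low Eif4g1, Eif4g3, Eif4h and Eif4ebp2 that normoxia replicate 1 does not show.

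In most members normoxia replicate 1 differed from normoxia replicates 2 and 3. In 35 of the 46 genes, 76.1%, the level in replicate 1 lay nearer to the mean of the SuHx libraries than to that of normoxia replicates 2 and 3, and the same held for 73.8% of all tested genes. Without that library, 18 members were called lower and 7 higher at day 28, or 39.1% and 15.2% of members, against 22.2% and 23.0% of all genes. In the same fit, 20 members were called lower and 7 higher at day 56, or 43.5% and 15.2%, against 21.2% and 21.8% of all genes. The days shared 18 of the 18 lower genes of day 28, which are 18 of the 20 of day 56, and 6 of the 7 higher genes of each day. All these calls are against the same 2 normoxia libraries, both of the code run 061 to 064. The part of the run in these calls was not tested. The summed level of 12 platelet markers was 904.8 CPM in normoxia replicate 1 and 3768 and 4091 CPM in replicates 2 and 3, beside 690.4 to 1085 CPM at day 28 and 2263 to 4465 CPM at day 56, and the part of this in the split of the normoxia libraries was not tested.

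Promoters of the members were read from RefSeq windows of the GRCr8 build, each of 250 bases before and 50 from the annotated start on, and 39 members had 1 window. The windows were searched on both strands for 5 motifs, none of which contains another. The E-box CACGTG, a site that MYC and its relatives can bind, was in 9 of the 39 windows, 23.1%, against 6.42% of 33469 windows of all genes. The ETS core CCGGAAG was in 14 windows, 35.9% against 8.75%, and CCAAT in 13, 33.3% against 37.5%. The cyclic AMP response element TGACGTCA was in none of the 39 windows and in 1.83% of all, and TTGCATCA, the ATF4 composite element, was in 1, that of Eif2s2, and in 0.795% of all. CACGTG was in the windows of Eif1b, Eif3a, Eif3b, Eif3f, Eif4e, Eif4g1, Eif4h, Eif5a and Eif5a2, whose median log2 fold change was 0.22 at day 28 and 0.13 at day 56, against -0.23 and -0.35 over the 30 windows without it. The members with CCGGAAG had medians of -0.36 and -0.38, against -0.04 and -0.27 without it, and those with CCAAT had -0.36 and -0.31, against -0.16 and -0.28 without it. The windows of all genes include many loci with no gene name, and a match is not a bound site.

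The 250 bases before the start are shown for the 3 genes that fell at day 56 and for Eif3m, Eif3f and Eif4g1, because the calls rest on the first 3 and the split of the normoxia libraries, or an opposite direction, shows in the others. Capitals mark any of the 5 motifs, on either strand. They lie on GRCr8 at chr6:103405630-103405879 on the plus strand (Eif2s1), chr11:93908801-93909050 on the minus strand (Eif2b5), chrY:944403-944652 on the plus strand (Eif2s3y), chr3:111897194-111897443 on the minus strand (Eif3m), chr1:172368812-172369061 on the plus strand (Eif3f) and chr11:93746368-93746617 on the minus strand (Eif4g1). The 3 genes that fell have no such motif in these bases. Eif3m has CCGGAAG 30 to 24 bases before the start, Eif3f has CACGTG 59 to 54 bases before it and CCAAT in 3 places, and Eif4g1 has CACGTG 54 to 49 bases before it.
Eif2s1: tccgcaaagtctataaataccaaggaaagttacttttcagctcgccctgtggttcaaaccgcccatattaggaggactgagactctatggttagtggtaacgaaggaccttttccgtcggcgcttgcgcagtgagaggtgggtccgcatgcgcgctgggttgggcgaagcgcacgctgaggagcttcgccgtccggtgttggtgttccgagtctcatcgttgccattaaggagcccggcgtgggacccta
Eif2b5: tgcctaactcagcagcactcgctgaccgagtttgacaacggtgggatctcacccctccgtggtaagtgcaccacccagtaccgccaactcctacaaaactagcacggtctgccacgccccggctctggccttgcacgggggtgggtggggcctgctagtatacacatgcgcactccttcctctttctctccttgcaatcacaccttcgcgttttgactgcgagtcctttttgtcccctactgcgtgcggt
Eif2s3y: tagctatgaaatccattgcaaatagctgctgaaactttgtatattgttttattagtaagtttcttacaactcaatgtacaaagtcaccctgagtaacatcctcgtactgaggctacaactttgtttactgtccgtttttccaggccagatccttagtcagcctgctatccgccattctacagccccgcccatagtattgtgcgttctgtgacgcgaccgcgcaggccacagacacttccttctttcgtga
Eif3m: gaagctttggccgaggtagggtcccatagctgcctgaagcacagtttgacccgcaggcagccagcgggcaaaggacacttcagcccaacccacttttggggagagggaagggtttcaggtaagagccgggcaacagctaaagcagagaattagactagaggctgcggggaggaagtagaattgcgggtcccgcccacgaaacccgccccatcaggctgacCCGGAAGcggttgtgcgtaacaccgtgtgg
Eif3f: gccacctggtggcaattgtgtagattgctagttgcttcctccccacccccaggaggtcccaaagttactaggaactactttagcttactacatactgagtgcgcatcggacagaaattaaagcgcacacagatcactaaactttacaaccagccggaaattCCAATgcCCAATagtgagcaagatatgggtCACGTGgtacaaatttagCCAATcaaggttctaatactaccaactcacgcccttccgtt
Eif4g1: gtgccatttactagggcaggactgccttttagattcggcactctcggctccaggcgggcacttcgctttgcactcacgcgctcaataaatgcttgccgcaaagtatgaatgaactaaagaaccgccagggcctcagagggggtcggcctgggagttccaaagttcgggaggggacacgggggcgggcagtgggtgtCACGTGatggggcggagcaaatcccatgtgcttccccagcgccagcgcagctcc

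Genes of eIF2, the carrier of the initiator tRNA, grouped with Eif2a and Eif2d, had the lowest median log2 fold change among the roles with more than 1 gene. The median of these 6 genes was -0.56 at day 28 and -0.90 at day 56 against normoxia. The medians over all 46 members were -0.14 and -0.25, and those over all tested genes -0.01 and -0.04. With the intron share of each library as a covariate the day 28 median over all members was 0.10, 23 of the 46 members changed sign, and Eif2s1, Eif2s2, Eif2s3 and Eif2s3y had log2 fold changes of 0.07, 0.15, 0.12 and 0.04 at day 28, while the day 56 median over all members was -0.18. Eif2s1 encodes the alpha subunit, the target of the stress kinases, and lies on chromosome 6 at 102048371 to 102073041 of the rn6 build. It had 30.4, 31.8 and 41.6 CPM at day 28 and 27.2, 22.4 and 22.9 CPM at day 56, against 33.2, 64.3 and 65.5 CPM in normoxia replicates 1, 2 and 3. All day 56 values lay below all normoxia values, and the lowest normoxia value, that of replicate 1, lay within the range of day 28. Its log2 fold change against normoxia was -0.65 at day 28 (SE 0.26, adjusted p = 0.145) and -1.17 at day 56 (SE 0.26, adjusted p = 0.0332), so that it fell at day 56.

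Eif2s3y, on chromosome Y at 914044 to 933699, encodes a Y-linked form of the gamma subunit that binds GTP and the tRNA. Its levels were 49.1, 63.6 and 49.6 CPM at day 28 and 39.9, 28.1 and 27.1 CPM at day 56, against 39.9, 87.0 and 96.3 CPM in normoxia. The highest day 56 value and the lowest normoxia value, both of replicate 1, differed by less than the rounding shown. Eif2s3y fell at day 56 (log2 fold change -1.23, SE 0.31, adjusted p = 0.0471) and did not pass at day 28 (-0.46, SE 0.31, adjusted p = 0.326). Eif2s3, its X-linked paralog on chromosome X, had 141, 172 and 145 CPM at day 28 and 142, 128 and 133 CPM at day 56, against 119, 275 and 258 CPM in normoxia. Here normoxia replicate 1 was the lowest of all 9 libraries, and the log2 fold changes of -0.51 and -0.69 (SE 0.28 each) did not pass the test. Eif2s2, for the beta subunit, had log2 fold changes of -0.73 and -1.03 (SE 0.31 each, adjusted p = 0.162 and 0.0705), and normoxia replicate 1, at 46.5 CPM, again lay far below replicates 2 and 3, at 121 and 125 CPM.

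The remaining genes grouped with eIF2 act outside the complex. Eif2a encodes a separate protein that can deliver initiator tRNA and had log2 fold changes of -0.61 at day 28 and -0.77 at day 56 (SE 0.24 each, adjusted p = 0.144 and 0.0729). Its annotated span, which begins at 148722230 of chromosome 2, overlaps only the end of that of Serp1, at 148722263. The strand setting of the counting is not given in the sources used here. Eif2d, which binds tRNA on ribosomes and acts in reinitiation, had log2 fold changes of -0.15 and 0.00 (SE 0.15 each). With normoxia replicate 1 left out, edgeR called 5 of these 6 genes lower at both days, all but Eif2d. That fit called 22.2% of all genes lower at day 28 and 21.2% at day 56.

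**Figure D2:**
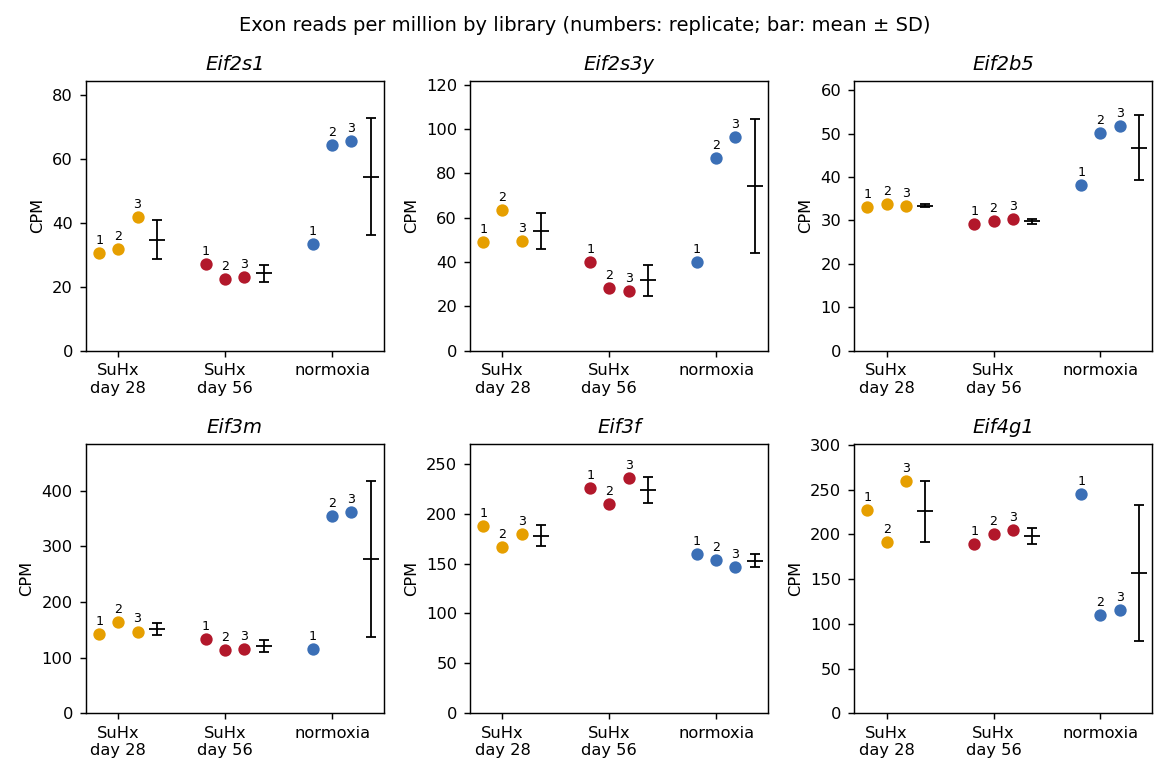
CPM of 6 genes in each library, with the replicate number above each point and the mean ± SD of the group beside it. Eif2s1 and Eif2b5 at day 56 lie below every normoxia library, Eif3f at both days above every normoxia library, and normoxia replicate 1 lies with the SuHx libraries for Eif3m and Eif4g1.

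All 5 subunits of eIF2B, the factor that recharges eIF2 with GTP, had negative log2 fold changes at both days, except that with the intron share as a covariate those of Eif2b2, Eif2b3 and Eif2b4 at day 28 were 0.04, 0.01 and 0.09. Eif2b5, on chromosome 11 at 84080272 to 84090259, encodes the catalytic epsilon subunit. It had 33.0, 33.8 and 33.4 CPM at day 28 and 29.1, 29.9 and 30.3 CPM at day 56, against 38.1, 50.2 and 51.8 CPM in normoxia. Every SuHx library lay below every normoxia library, and the day 56 libraries below the day 28 ones. Eif2b5 fell at day 56 (log2 fold change -0.65, SE 0.15, adjusted p = 0.0363) and did not pass at day 28 (-0.48, SE 0.15, adjusted p = 0.104). The regulatory alpha, beta and delta subunits are encoded by Eif2b1, Eif2b2 and Eif2b4, and Eif2b3 encodes the gamma subunit that partners epsilon. Their log2 fold changes at day 56 were -0.58 for Eif2b1 (SE 0.22), -0.59 for Eif2b2 (SE 0.19), -0.66 for Eif2b3 (SE 0.28) and -0.16 for Eif2b4 (SE 0.15), and none passed the test at either day. Eif2b2 had 23.4, 22.9 and 25.2 CPM at day 56, below its 26.1, 40.7 and 41.2 CPM in normoxia. Eif2b1 overlaps Ddx55 and Gtf2h3 in the annotation, so reads of these genes cannot be told apart without strand. When normoxia replicate 1 was left out, all but Eif2b4 were called lower at both days, beside 22.2% and 21.2% of all genes.

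The calls of Eif2s1, Eif2b5 and Eif2s3y rested on most of the libraries. Over 21 alternative fits the adjusted p of Eif2s1 at day 56 ran from 0.000276 to 0.153 and passed in 11, that of Eif2b5 from 0.00044 to 0.153 and passed in 8, and that of Eif2s3y from 0.000652 to 0.242 and passed in 8. All 3 calls ended without normoxia replicate 2 (adjusted p = 0.123, 0.137 and 0.156 in that order), without normoxia replicate 3, without any 1 of the day 56 libraries and without day 28 replicate 1. Without day 28 replicate 2 or replicate 3 only Eif2s1 still passed (adjusted p = 0.0499 and 0.04). With the code run as a block in the fit of day 56 against normoxia, the log2 fold changes were -1.09 for Eif2s1 (SE 0.26, adjusted p = 0.0520), -0.61 for Eif2b5 (SE 0.15, adjusted p = 0.0564) and -1.14 for Eif2s3y (SE 0.34, adjusted p = 0.0785). Within the run 061 to 064, Eif2s1 had 22.4 and 22.9 CPM at day 56 against 64.3 and 65.5 CPM in normoxia, and within 046 and 047 it had 27.2 CPM against 33.2 CPM, 1 library of each. With the intron share of each library as a covariate, the log2 fold changes were -0.78 for Eif2s1 (SE 0.24, adjusted p = 0.153), -0.52 for Eif2b5 (SE 0.16, adjusted p = 0.153) and -0.96 for Eif2s3y (SE 0.38, adjusted p = 0.242).

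The 11 genes of eIF3, the scaffold that joins the small subunit to eIF4F, did not share a direction. Their median log2 fold change was -0.16 at day 28 and -0.27 at day 56, with 7 and 6 genes lower by sign, and none passed the test. Eif3f, for a core subunit with a protease-like fold, had 188, 166 and 179.8 CPM at day 28 and 226, 209.9 and 235 CPM at day 56, against 159, 153 and 146 CPM in normoxia. The 3 groups did not overlap, and the log2 fold change of Eif3f was 0.22 at day 28 (SE 0.15, adjusted p = 0.33) and 0.55 at day 56 (SE 0.15, adjusted p = 0.0535). In DESeq2 and without normoxia replicate 1 the day 56 difference of Eif3f passed. Eif3m, another core subunit, had 143, 164 and 147 CPM at day 28 and 134, 114 and 116 CPM at day 56, against 116, 355 and 361 CPM in normoxia. Normoxia replicates 2 and 3 were above every other library by more than the whole range of the rest, and with normoxia replicate 1 in the fit the log2 fold changes of -0.88 and -1.19 (SE 0.36 each, adjusted p = 0.152 and 0.0686) did not pass.

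Eif3k, for a small accessory subunit, had 71.7 to 84.4 CPM in the SuHx libraries, against 62.3 CPM in normoxia replicate 1, the lowest of all 9 libraries, and 152 and 141 CPM in replicates 2 and 3. Eif3el1, an eIF3e-like locus, had log2 fold changes of -0.67 and -1.16 (SE 0.36 each), and only 54.3% of its exon reads mapped to 1 place, so its values are uncertain. The same holds for Eif3l, an accessory subunit at 60.6%, which also overlaps AC096473.3. The large scaffold subunits Eif3a, Eif3b and Eif3c had log2 fold changes at day 56 of 0.12 (SE 0.16), 0.44 (SE 0.17) and -0.42 (SE 0.18), none of which passed. Eif3b stood at 102, 105 and 112 CPM at day 56, above its 93.5, 70.6 and 71.1 CPM in normoxia, and Eif3c at 148, 157 and 159 CPM, just below its 159.8, 224 and 235 CPM. Eif3d, which can itself bind the cap of some mRNAs, and Eif3g, an RNA-binding subunit, had log2 fold changes between -0.16 and 0.12. Eif3j, a loosely held subunit, had -0.04 at day 28 and -0.29 at day 56 (SE 0.24 each). Without normoxia replicate 1, Eif3c, Eif3el1, Eif3k and Eif3m were called lower at both days and Eif3l lower at day 56. In the same fit Eif3b was called higher at both days, Eif3a at day 28 and Eif3f at day 56. Of all genes, 22.2% were called lower and 23.0% higher there at day 28, and 21.2% and 21.8% at day 56.

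Genes of eIF4F and its helpers had positive medians, 0.13 at day 28 and 0.19 at day 56 over 11 genes, and none passed the test. Eif4g1, the main scaffold, had 227.5, 191 and 259 CPM at day 28 and 189, 200.5 and 205 CPM at day 56, against 244.5, 109.5 and 116 CPM in normoxia. Normoxia replicate 1 lay among the day 28 libraries and replicates 2 and 3 far below all others, and the log2 fold changes were 0.53 and 0.34 (SE 0.30 each, adjusted p = 0.253 and 0.458). Only 67.0% of its reads mapped to 1 place, and with uniquely mapped reads the log2 fold changes were 0.52 and 0.35. Eif4g3, its paralog, had log2 fold changes of 0.59 and 0.48 (SE 0.23 each, adjusted p = 0.145 and 0.193). Eif4g2, a shorter relative that lacks the eIF4E-binding part, had 0.03 and -0.19 (SE 0.20 each). Eif4h, which stimulates the helicase, had 164, 180.5 and 162 CPM at day 28 and 176, 169 and 175 CPM at day 56, against 156, 109 and 112 CPM in normoxia. No SuHx library of Eif4h overlapped normoxia, and its log2 fold changes were 0.43 and 0.47 (SE 0.18 each, adjusted p = 0.153 and 0.112).

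The cap-binding protein and the helicases differed among themselves. Eif4e, for the cap-binding protein, had 39.9, 38.9 and 52.1 CPM at day 28 and 48.1, 37.0 and 36.1 CPM at day 56, against 43.1, 64.6 and 63.1 CPM in normoxia, with log2 fold changes of -0.38 and -0.49 (SE 0.21 each, adjusted p = 0.242 and 0.146). Eif4e2, a cap-binding protein that represses translation, had log2 fold changes of 0.00 and 0.23 (SE 0.14 each). Eif4e3, a further cap-binding relative, had 26.4, 44.5 and 20.3 CPM at day 28 and 16.7, 19.2 and 14.04 CPM at day 56, against 18.6, 19.0 and 20.3 CPM in normoxia. Its highest value was in day 28 replicate 2, the library with the highest summed levels of monocyte markers, 11099 CPM, and of neutrophil markers, 292 CPM. Day 28 replicates 1 and 3 had 4735 and 3543 CPM of monocyte markers and 108 and 119 CPM of neutrophil markers. The part of these cells in the level of Eif4e3 was not tested. Eif4a1, the abundant helicase, had log2 fold changes of 0.25 and 0.19 (SE 0.16 each), and Eif4a2, its paralog, -0.39 and -0.52 (SE 0.27 each). Eif4a3, a relative that belongs to the exon junction complex, had -0.49 and -0.34 (SE 0.20 each), and Eif4b, which stimulates the helicase, 0.13 and 0.22 (SE 0.17 each). Without normoxia replicate 1, Eif4a2, Eif4a3 and Eif4e were called lower and Eif4g1, Eif4g3 and Eif4h higher at both days. Of all genes, that fit called 22.2% lower and 23.0% higher at day 28, and 21.2% and 21.8% at day 56.

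The eIF4E-binding proteins hold eIF4E away from the scaffold until the kinase mTOR phosphorylates them. Eif4ebp2 had 57.3, 46.5 and 62.1 CPM at day 28 and 64.2, 63.03 and 60.1 CPM at day 56, against 59.9, 25.4 and 28.2 CPM in normoxia. All day 56 libraries lay above all normoxia libraries, of which replicate 1 came close to them and replicates 2 and 3 were far below, and the log2 fold changes were 0.55 and 0.72 (SE 0.30 each, adjusted p = 0.24 and 0.138). Eif4ebp1, its paralog, had -0.12 and -0.23 (SE 0.29 each), with normoxia replicate 1 the lowest library at 18.1 CPM. Eif4ebp3 had 0.03 and -0.36 (SE 0.16 each), but its gene model of 8986 exon bases over 29386808 to 29492718 of chromosome 18 is the longest of the 46, and RefSeq places Ankhd1 beside it, so its values are uncertain. Eif4enif1, for the protein that carries eIF4E into the nucleus and into processing bodies, had 0.45 and 0.31 (SE 0.19 each). In the fit without normoxia replicate 1, Eif4ebp2 and Eif4enif1 were called higher at both days, beside 23.0% and 21.8% of all genes.

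**Figure D3:**
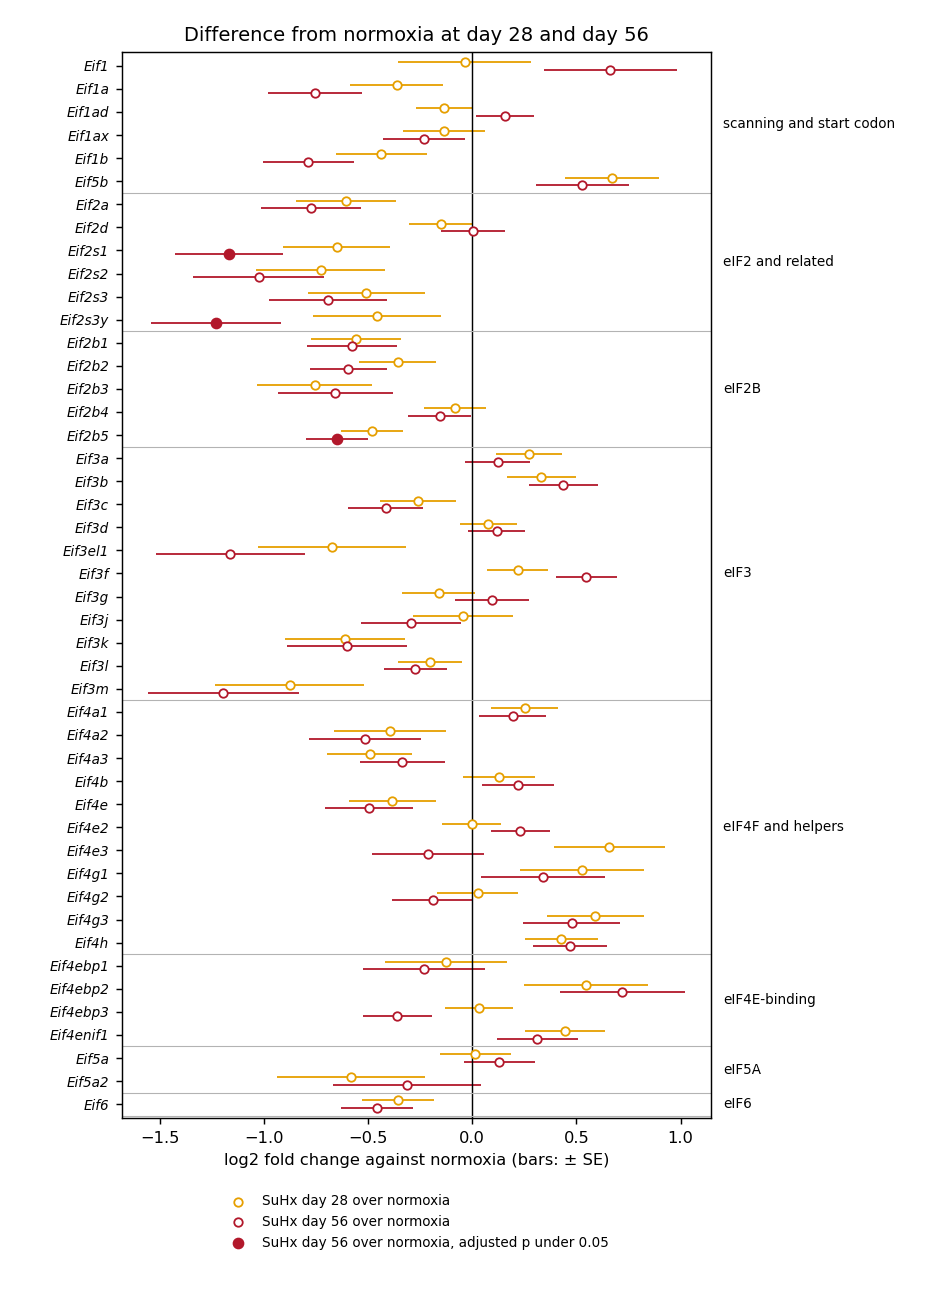
Log2 fold change against normoxia of each gene, with bars of ± SE, at day 28 in orange and at day 56 in red, by role; filled points have an adjusted p under 0.05. Only Eif2s1, Eif2s3y and Eif2b5 at day 56 are filled, and all 5 eIF2B genes lie left of 0 at both days, in a fit without the intron share as a covariate.

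Among the genes that act in scanning and at the start codon, the direction differed from gene to gene. Eif1, which keeps the scanning ribosome from stopping at a wrong codon, had 396, 406 and 281 CPM at day 28 and 606, 551 and 603 CPM at day 56, against 195, 465 and 452 CPM in normoxia. All day 56 libraries were above all others, and the log2 fold change of day 56 against normoxia was 0.66 (SE 0.32, adjusted p = 0.19). Eif1b, its less abundant paralog, had 17.1, 19.98 and 19.0 CPM at day 28 and 13.95, 14.9 and 15.1 CPM at day 56, against 16.8, 28.8 and 30.3 CPM in normoxia. Its day 56 libraries lay below all others, with a log2 fold change against normoxia of -0.79 (SE 0.22, adjusted p = 0.0579). Eif1a, a gene of the eIF1A family, had -0.75 at day 56 (SE 0.23, adjusted p = 0.0672), and the X-linked Eif1ax, which encodes eIF1A itself, -0.23 (SE 0.20). Eif1ad, for a protein with an eIF1A domain, had 0.16 (SE 0.14). Eif5b, the GTPase that joins the subunits, had 0.67 at day 28 and 0.53 at day 56 (SE 0.22 each), but only 25.7% of its reads mapped to 1 place; with uniquely mapped reads the values were 0.94 and 0.83. Without normoxia replicate 1, Eif1b was called lower at both days and Eif1a at day 56, beside 22.2% and 21.2% of all genes.

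The last members act after or beside initiation. Eif5a, for the hypusine-carrying factor that helps ribosomes through difficult stretches, had log2 fold changes of 0.01 and 0.13 (SE 0.17 each). Its annotated span overlaps those of AABR07029863.1 and AABR07029863.3. Eif5a2, the paralog of Eif5a, had 2.3 to 5.7 CPM in all libraries and did not pass. Eif6, which keeps the large subunit from joining too early, had 44.4, 40.1 and 47.5 CPM at day 28 and 35.0, 41.4 and 46.7 CPM at day 56, against 46.6, 63.3 and 59.0 CPM in normoxia. Its log2 fold changes were -0.36 and -0.46 (SE 0.17 each, adjusted p = 0.2 and 0.114), and it was called lower at both days without normoxia replicate 1.

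**Figure D4:**
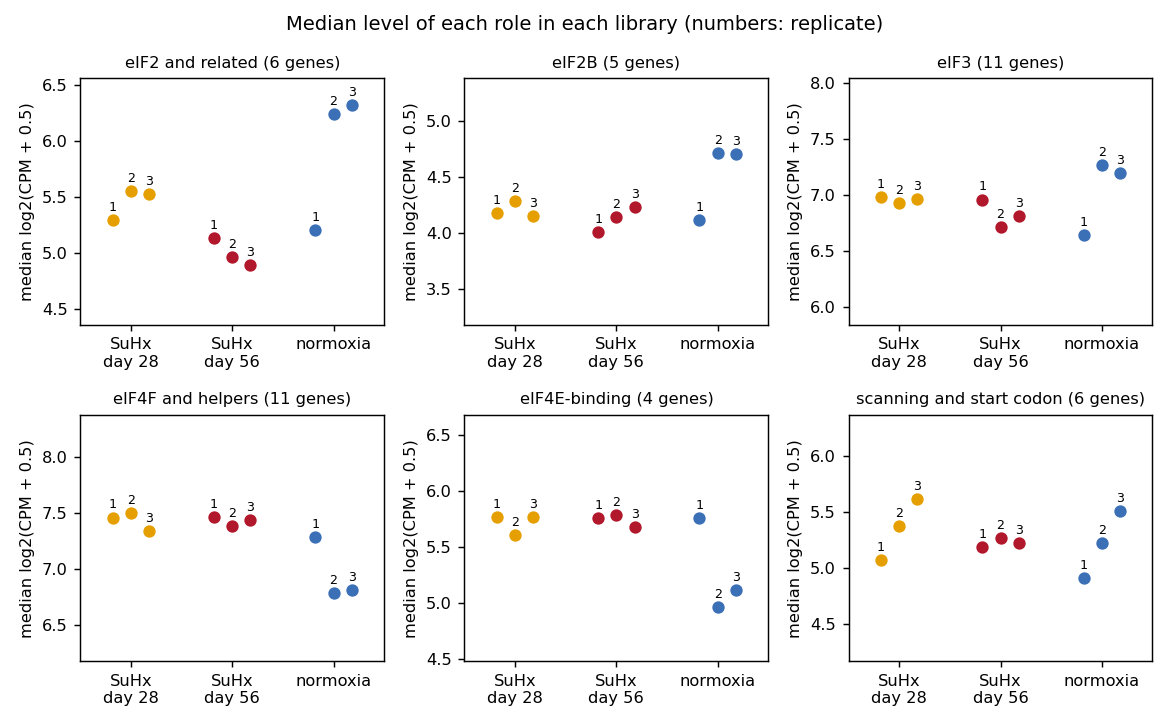
Median log2(CPM + 0.5) over the genes of each role in each library, with replicate numbers; every panel spans the same range of 2.2. For eIF2 and related genes the median was 6.23 and 6.32 in normoxia replicates 2 and 3, against 5.20 in normoxia replicate 1, 5.29 to 5.55 at day 28 and 4.89 to 5.13 at day 56.

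Groups that did not overlap at all were counted as a description. At day 28 against normoxia 1 member lay wholly below (11.8% of all genes did), Eif2b5, and 5 wholly above (11.4% of all genes), Eif3a, Eif3f, Eif4a1, Eif4e3 and Eif4h. At day 56 against normoxia 7 members lay wholly below and 7 wholly above, 15.2% each, close to the 14.9% and 15.6% of all genes. The lower ones were Eif1a, Eif1b, Eif2b2, Eif2b5, Eif2s1, Eif3c and Eif4ebp3, and the higher ones Eif1, Eif3b, Eif3f, Eif4a1, Eif4b, Eif4ebp2 and Eif4h. At day 56 both directions were near the shares of all genes, and at day 28 the share wholly below was smaller.

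Between the days, no member passed the test of day 56 against day 28, where 0.546% of all genes did. Only 3 members, all lower, had an unadjusted p under 0.05, which is 6.52% against 18.5% of all genes, and DESeq2 called Eif3f higher and Eif4e3 lower, 2.17% each, against 4.81% of all genes higher and 3.91% lower. Wholly below were 11 members (17.4% of all genes) and wholly above 6 (17.8% of all genes). The differences of largest size were in Eif4e3 (log2 fold change -0.87, SE 0.27, adjusted p = 0.133), Eif2s3y (-0.77, SE 0.31, adjusted p = 0.221) and Eif1 (0.70, SE 0.32, adjusted p = 0.283). In the fit without normoxia replicate 1, which changes this comparison only through the shared spread, scaling and filter, Eif1 was called higher (adjusted p = 0.0346) and Eif2s3y lower (adjusted p = 0.0392), where 7.89% of all genes were called.

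The level of the members spanned a wide range when divided by exon length. In CPM per kilobase of exon, Eif1 had the highest mean over the 9 libraries, 317, followed by Eif5a at 218, Eif3m at 141 and Eif3f at 139. The eIF2B genes were at the low end, between 6.23 for Eif2b3 and 12.1 for Eif2b2, and Eif5a2 was lowest at 0.726. The eIF2 subunits lay between, with means of 27.4 for Eif2s1, 47.4 for Eif2s2, 40.1 for Eif2s3 and 30.5 for Eif2s3y. Summed over all members the level was 4929 to 5118 CPM at day 28 and 4849 to 5171 CPM at day 56, against 4335 CPM in normoxia replicate 1 and 5753 and 5769 CPM in replicates 2 and 3.

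Ratios of paralogs within a library do not depend on the scaling between libraries, and 8 pairs were compared over 3 comparisons by exact two-sided permutation tests. With 3 libraries a group the smallest p such a test allows is 0.1, and adjusted over the 24 tests no pair went below 0.554. The log2 ratio of Eif1b to Eif1, in reads per exon length, was -3.95, -3.76 and -3.30 at day 28 and -4.85, -4.62 and -4.73 at day 56, against -2.94, -3.42 and -3.31 in normoxia. The day 56 libraries lay apart from both other groups, and the difference of means was -1.51 against normoxia (exact p = 0.1) and -1.07 against day 28 (exact p = 0.1). For Eif4e2 over Eif4e the ratio was 0.09, 0.72 and 0.72 at day 56, above 0.04, -0.27 and -0.39 in normoxia (difference 0.72, exact p = 0.1). Eif5a2 over Eif5a was -8.40, -8.48 and -8.61 at day 28, below -8.26, -7.96 and -7.59 in normoxia (difference -0.56, exact p = 0.1), with Eif5a2 near the low end of detection.

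In 3 further pairs, normoxia replicate 1 had a ratio far from replicates 2 and 3. Eif4a2 over Eif4a1 was -0.84 in normoxia replicate 1 and 0.41 and 0.23 in the others, with -0.85 to -0.49 in the SuHx libraries. Eif4g2 over Eif4g1 was 0.89 in normoxia replicate 1 and 2.39 and 2.26 in the others, and Eif4ebp2 over Eif4ebp1 was 0.65 against -1.44 and -1.46. The ratio of Eif2s3y to Eif2s3, added after its values were seen and so given with no test, was -0.57, -0.92 and -1.04 at day 56, against -0.26, -0.17 and -0.29 at day 28 and -0.31, -0.40 and -0.16 in normoxia. All day 56 libraries lay below all others in this ratio, in which normoxia replicate 1 did not stand apart.

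**Figure D5:**
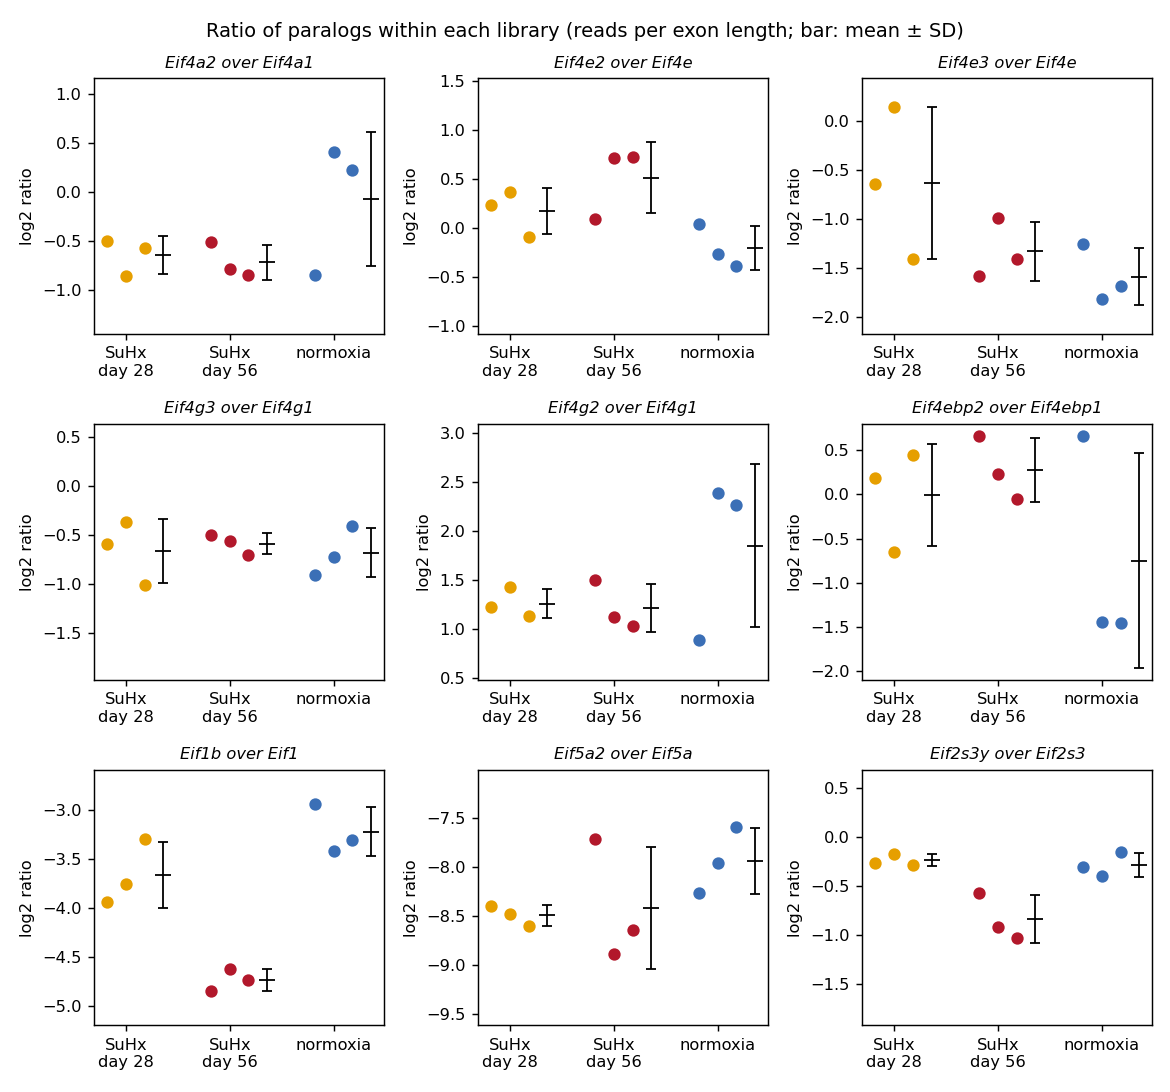
Log2 ratio of paralogs within each library, in reads per exon length, with the mean ± SD of each group; the panels have different axes. Eif1b over Eif1 and Eif2s3y over Eif2s3 are lowest at day 56 in all 3 libraries, and Eif4a2 over Eif4a1 and Eif4ebp2 over Eif4ebp1 split the normoxia libraries.

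The share of the members' reads that fell on introns was higher in every SuHx library than in normoxia replicates 2 and 3, but not than in replicate 1. Over all 46 members together it was 12.3% to 18.03% at day 28 and 14.9% to 19.5% at day 56, against 13.98% in normoxia replicate 1 and 8.89% and 8.38% in replicates 2 and 3. The share lay wholly above normoxia in 12 members at day 28, which is 26.1% against 15.9% of all genes, and in 26 members at day 56, which is 56.5% against 29.1% of all genes. At day 56 it lay wholly above day 28 in 11 members, 23.9% against 7.59% of all genes, and wholly below in 2, 4.35% against 8.82%. Its median was higher at day 56 than at day 28 in 25 members, 54.3% against 43.3% of all genes. For Eif2b5 the intron share was 27.2%, 21.1% and 15.997% at day 28 and 43.0%, 34.3% and 35.8% at day 56, against 15.2%, 9.61% and 10.7% in normoxia. For Eif2s3y it was 22.5%, 15.9% and 16.1% at day 28 and 34.4%, 33.7% and 27.2% at day 56, against 14.9%, 7.22% and 5.72% in normoxia. The groups of both genes were apart, day 56 highest. Eif2s1 differed from them, since normoxia replicate 1, at 37.7%, lay within the SuHx range of 32.8% to 42.5% and replicates 2 and 3 were at 13.3% and 13.4%. A lower exon count raises this share by itself, so it is not a separate measure of the fall.

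Exon length also moved with the fold changes, in members as in all genes. Spearman's rho of exon length with log2 fold change was 0.38 at day 28 and 0.28 at day 56 across the 46 members, and 0.35 and 0.29 across all 12447 tested genes. These points share libraries and are given as a description. The long Eif4g1, Eif4g3 and Eif3a models, of 4800, 5591 and 5125 exon bases, had positive log2 fold changes at both days. The long Eif2s3, of 4191 bases, had -0.51 and -0.69, and Eif4ebp3, the longest model, 0.03 and -0.36. The short Eif3m, Eif3k and Eif2s1 models, of 1299, 901 and 1377 bases, had negative ones, while the short Eif3f, of 1327 bases, was positive. Members longer than the median length had medians of -0.002 at day 28 and -0.21 at day 56. Those of the shorter members were -0.20 and -0.29. The part of length in the results was not tested.

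The lists of neighbouring pathway genes were read from the same fit, and none held a called gene at day 28 or between the days. At day 56 against normoxia 7.12% of all genes were called in either direction. Of 8 tested elongation genes, Eef2k, the kinase that inhibits elongation factor eEF2, rose at day 56, with 49.6 ± 4.98 CPM against 26.6 ± 6.03 CPM in normoxia (SD, n = 3 each; log2 fold change 0.90, SE 0.19, adjusted p = 0.0284). The termination and recycling list includes Eif2d, which is also a member. Among its 6 tested genes Mcts1, which with Denr removes tRNA from recycled ribosomes, fell by 1.26 (SE 0.30, adjusted p = 0.0390). Of 16 tested genes around the eIF2 kinases and the integrated stress response, 3 passed at day 56, 1 higher and 2 lower. Ppp1r15a, the phosphatase subunit that directs dephosphorylation of eIF2 alpha and is also an immediate stress gene, rose to 152 ± 13.1 CPM, against 28.5 ± 8.67 CPM in normoxia (log2 fold change 2.42, SE 0.38, adjusted p = 0.0118). Eif2ak2, the kinase activated by double-stranded RNA, fell by 1.20 (SE 0.25, adjusted p = 0.0257), and Nck1, an adaptor that can bring a phosphatase to eIF2, fell by 1.07 (SE 0.21, adjusted p = 0.0238). The transcription factors Atf4 and Ddit3 of the same pathway had log2 fold changes of 0.53 (SE 0.34) and 0.66 (SE 0.27) at day 56 and did not pass. None of 15 tested cap-binding regulators, among them Mtor and Rptor, and none of 11 genes of poly(A)-binding partners and helicases passed. The median log2 fold changes of these lists at day 56 were -0.18 for elongation, -0.42 for termination and recycling, 0.27 for the eIF2 kinase list, 0.24 for the cap-binding regulators and 0.04 for the last list, beside -0.04 over all genes.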

How the data were processed

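The study gave, per the labels, RNA-seq libraries of rat PBMC in 3 groups, SuHx day 28, SuHx day 56 and normoxia day 0, with 3 libraries each. The deposited table holds raw exon read counts per gene and library, made by the authors with no normalization. The column of uniquely mapped exon reads is formally one of expected counts as deposited, since the broken lines put values of other columns into it, and it held whole numbers on the intact lines, so no rounding was needed. Of 22085 lines, 8 were fragments of 4 broken genes and were left out, and 99 further columns of per-library values were not used. The build rn6 and FastQC are named in the submitters' processing notes; the aligner, the counting tool and the strand setting are not named in the labels (not given in the sources used here).

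Genes with enough reads by edgeR's filter (12447) were tested with edgeR 4.0.16 in R 4.3.3, by the quasi-likelihood test with robust fitting, TMM scaling and 1 mean per group over all 9 libraries, with Benjamini-Hochberg adjustment over all tested genes and a threshold of 0.05. Every adjusted p in the text is from this fit unless another is named; standard errors were taken from the F statistic. The code was tested on simulated data. DESeq2 1.42.0, other scalings, no filter, uniquely mapped reads, covariates, a replicate block and left-out libraries were alternatives, and the fits with the code run as a block and without both normoxia replicate 1 and day 28 replicate 3 were added after the data were seen. Replicate numbers did not pair the libraries.

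The members and the lists (elongation, termination and recycling, eIF2 kinases and the integrated stress response, cap-binding regulators, poly(A)-binding partners and helicases, and blood cell markers) were chosen with earlier results of these data known. Named were all called members, a set list of members, those with the highest and lowest level and those with under 80% uniquely mapped reads; the rest are described with their role. Promoter sequences are from RefSeq (GRCr8), where 39 members had 1 window, 3 had 2 and were left out, and 4 had none on their chromosome. Total exon reads were 22148400 to 39947430, but the globin share makes them a poor measure of depth for the members. Library sizes after TMM scaling ran from 15411025 in normoxia replicate 3 to 39391995 in day 28 replicate 2. The members' exon reads ran from 88911 to 201599 in the same 2 libraries. Counts carry counting error only beside the spread between libraries (common biological coefficient of variation 0.280).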

Additional observations from a re-analysis of the deposited data

How the results depend on the processing

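Gene totals at day 28, at day 56 (each against normoxia) and between the days were 16, 886 and 68, and member totals 0, 3 and 0. DESeq2 gave 1696, 2437 and 1086 genes and 2, 13 and 2 members, and the replicate block 223, 540 and 186 genes and, at day 56, 0 members. Fitting only the 2 groups compared gave 2, 348 and 590 genes and 0 members at day 56. With intron share as covariate 1 and 138 genes and, at day 56, 0 members were called, and with globin share 1, 503 and 0 genes and, at day 56, 1 member, Eif2s1. With the code run as a block and no day 28 libraries, 787 of 12055 genes and 0 members were called at day 56. At day 28 other scalings gave 8 (RLE, 8 higher and 0 lower) and 79 genes (upper quartile, 31 higher and 48 lower), where TMM gave 11 higher and 5 lower, no filter gave 151 and uniquely mapped reads 72. Leaving out 1 library gave 2 to 5732, 85 to 5453 and 3 to 1002 genes, and 0 to 25, 0 to 27 and 0 to 2 members, in each case highest without normoxia replicate 1. Without both normoxia replicate 1 and day 28 replicate 3 there were 5875, 5790 and 1336 genes and 26, 28 and 3 members. The cause of these shifts was not tested.

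Of the single-gene values over all alternatives, 2651 kept their side of the threshold, 119 came to pass it, 36 ceased to and none that was called changed sign, while among uncalled values at day 28 the intron share covariate turned the sign of 23 members; no paralog ratio moved beyond its spread. With the replicate block the adjusted p at day 56 was 0.0511 for Eif2s1, 0.0572 for Eif2b5 and 0.0754 for Eif2s3y. Same-numbered libraries had correlations of their deviations of -0.146 to 0.167, so the numbers do not pair them. Depth limits Eif5a2 most, which had the lowest level of the members.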

Other observations

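Markers of other blood cells were read from the same edgeR fit, and 3 of the 73 tested passed at day 56 against normoxia, 4.11% against 7.12% of all genes. Cd79b, a chain of the B cell receptor complex, had 158 ± 29.9 CPM at day 56 against 479 ± 192 CPM in normoxia (SD, n = 3 each; log2 fold change -1.60, edgeR adjusted p = 0.0257). Cd28, a costimulatory receptor of T cells, had 64.4 ± 10.04 CPM against 27.9 ± 3.84 CPM (log2 fold change 1.20, adjusted p = 0.0208), and Mmp9, a protease of neutrophil granules, 11.3 ± 1.60 CPM against 2.502 ± 0.475 CPM (log2 fold change 2.18, adjusted p = 0.0138). Of the 11 T cell markers 6 were lower by sign at day 56, with a median log2 fold change of -0.03. The other B cell, T cell and neutrophil markers did not pass, and none of the platelet, monocyte and NK cell markers passed at either day. Summed levels at day 28, at day 56 and in normoxia were 558 to 1057, 504 to 841 and 1032 to 1659 CPM for 7 B cell markers, 1133 to 1805, 1529 to 1925 and 1494 to 1673 CPM for 11 T cell markers, 282 to 537, 640.2 to 789 and 416 to 642 CPM for 8 NK cell markers and 108 to 292, 75.8 to 124 and 49.6 to 103 CPM for 10 neutrophil markers. Their part in the values of the initiation factor genes was not tested.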
